A study of Mus musculus with 6 samples.

Results

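The genes described here encode the IL-17 cytokines IL-17A and IL-17F (*Il17a*, *Il17f*), the cytokines IL-21 and IL-22 (*Il21*, *Il22*), and 4 chains of the IL-17 receptors (*Il17ra*, *Il17rb*, *Il17rc*, *Il17re*). They were chosen by name, as 4 cytokine genes and 4 receptor genes out of the 24223 genes counted in each library, and all 8 were among the 13607 genes that passed a filter on low counts. RNA-Seq was carried out on 6 libraries, 2 independent biological replicates each of mouse Naive, Th17 and Th1 cells. Naive cells were CD4+CD44- T cells isolated with magnetic beads from pooled lymph nodes and spleens of C57BL/6 mice 1 to 2 months old. Th17 cells were made from such cells by stimulation through CD3 and CD28 with TGF-β, IL-6, IL-1β and IL-23 and antibodies that block IL-4 and IFN-γ. Th1 cells were made with the same stimulation, IL-12, IL-2 and the antibody that blocks IL-4. Both cultures were collected on the fifth day and were not sorted before sequencing. Restimulation with PMA and ionomycin is described for cytokine staining and not for the sequenced cells.

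IL-17A and IL-17F are secreted as homodimers or as a heterodimer and signal through a receptor made of IL-17RA and IL-17RC, mainly on epithelial, stromal and myeloid cells, where they induce neutrophil-attracting chemokines and antimicrobial proteins. IL-17RA is shared by several receptors of the family. It pairs with IL-17RB for IL-25 and with IL-17RE for IL-17C. IL-21 acts on T and B cells through IL-21R and the common γ chain, and IL-22 acts on epithelial cells through IL-22RA1 and IL-10RB. Th17 cells are known for making IL-17A, IL-17F, IL-21 and IL-22.

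The library totals ranged from 17742158 to 69080017 counts, and replicate 1 was 3.38 to 3.77 times as deep as replicate 2 in every cell type, so that 3 counts corresponded to between 0.0440 and 0.190 CPM. CPM is a gene's count brought to a common library total after scaling with the TMM method. The summed CPM of 8 T cell markers (*Cd4*, the CD3 chains and others) was 3086 to 4349 in the 6 libraries, with each marker above 1 CPM in every library. *Tbx21*, which encodes the Th1 transcription factor T-bet, was at 22.1 ± 1.75, 3.65 ± 1.31 and 148 ± 14.4 CPM (mean ± SD, n = 2) in Naive, Th17 and Th1. Myeloid and neutrophil markers were present in all libraries and moved between the cell types. The summed CPM of the 11 markers found in the files was 212 to 354 in Naive, 3093 to 3549 in Th17 and 43.9 to 71.6 in Th1, and none was at 0 counts in both libraries of a cell type. In bulk samples such as these, a lower share of cells that express a gene and less RNA per cell cannot be told apart.

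*Il17a* and *Il17f* are neighbours on chromosome 1 of mm10, on opposite strands and 42649 bases apart, with no annotated gene between them. *Il17a* lies at chr1:20730905-20734496 on the plus strand, with 3 exons, and *Il17f* at chr1:20777146-20790617 on the minus strand, with 7 exons when its 4 transcript models are merged. Because the genes changed together, the bases just before their RefSeq starts (GRCm38.p6) are shown, read 5′ to 3′ on the coding strand of each gene. Capitals mark matches to 3 motifs, namely AGGTCA (a half-site of nuclear receptors; written TGACCT where it lies on the other strand), TGANTCA (an AP-1 site, where N is any base) and the TATA box, TATAAA. The first window is chr1:20730655-20730904 and the second is chr1:20784271-20784494, which stops short of 26 bases that belong to an exon of another *Il17f* transcript.
Il17a: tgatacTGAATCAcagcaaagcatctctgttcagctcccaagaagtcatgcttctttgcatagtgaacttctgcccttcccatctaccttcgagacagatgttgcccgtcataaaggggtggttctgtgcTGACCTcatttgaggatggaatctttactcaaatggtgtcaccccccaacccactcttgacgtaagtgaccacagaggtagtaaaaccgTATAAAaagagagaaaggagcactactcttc
Il17f: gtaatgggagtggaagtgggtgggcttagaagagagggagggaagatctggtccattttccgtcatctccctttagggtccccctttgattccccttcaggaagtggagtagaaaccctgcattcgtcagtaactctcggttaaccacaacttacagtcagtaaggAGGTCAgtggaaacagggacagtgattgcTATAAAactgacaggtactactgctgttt

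The AGGTCA match ended 115 bases before the start of *Il17a* and 53 bases before the start of *Il17f*, and the TATAAA match ended 26 and 24 bases before it. Searched on both strands over the 250 bases upstream of 32851 RefSeq starts, AGGTCA was found in 14.0% of the windows, TGANTCA in 6.75% and TATAAA in 12.4%. A STAT motif, TTCNNNGAA, was found in 7.02% and in none of the windows of the 7 genes matched to the RefSeq table used (*Il17ra* was not matched). Of the other genes, *Il21* held none of the 4 motifs in this window, *Il22* held a TATAAA match and *Il17rb* a TGANTCA match. The windows were set by RefSeq starts, which differ from the GENCODE spans of some genes. Those of *Il17f* and *Il17re* lie inside the GENCODE span of the gene, and those of *Il22* and *Il17rc* end past its start. A match, or its absence, gives only the letters of the window.

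*Il22* (chr10:118204942-118210047, plus strand, 5 exons) has a near-identical copy, *Iltifb* (chr10:118289629-118295038, minus strand), and reads can be shared between them. Their coding sequences of 540 bases differ at 9 positions and are 98.3% identical. The stretch that holds 6 of the differences, coding bases 91 to 270 of the GENCODE vM21 transcripts, is shown with the differing bases in capitals.
Il22: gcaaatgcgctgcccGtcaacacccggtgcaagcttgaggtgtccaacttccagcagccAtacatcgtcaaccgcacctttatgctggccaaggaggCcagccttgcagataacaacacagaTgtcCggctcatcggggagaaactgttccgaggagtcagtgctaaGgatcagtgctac
Iltifb: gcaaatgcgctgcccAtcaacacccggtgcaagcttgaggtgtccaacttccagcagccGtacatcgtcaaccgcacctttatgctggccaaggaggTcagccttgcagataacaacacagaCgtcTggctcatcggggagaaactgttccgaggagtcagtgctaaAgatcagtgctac

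Of 961 windows of 150 bases along the *Il22* transcript, 74 (7.70%) occurred unchanged in *Iltifb*. The *Iltifb* counts were 288 and 59 in the Th17 libraries, which was 0.689% and 0.514% of the counts of both genes together, 0 and 3 in Naive, and 0 in both Th1 libraries. The values of *Il22* below may therefore hold reads of the copy, or lack reads that fit both genes equally.

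Comparing Th17 with Naive asks which genes differ after polarization towards Th17. All 4 cytokine genes were up-regulated in Th17, as was *Il17re*, while *Il17rb* was down-regulated and *Il17ra* and *Il17rc* were not called. A gene was called a DEG where edgeR's quasi-likelihood test, fitted over all genes tested, gave an adjusted p (Benjamini-Hochberg) under 0.01 together with a log2 fold change beyond 1 in either direction. Thus 5 of the 8 genes were called up, where 4.01% of all genes tested were, and 1 was called down, where 1.43% were. In either direction this was 6 of 8, against 5.43% of all genes. The median log2 fold change of the 8 genes was 4.02, against -0.02 over all genes tested. Of the 8 genes, 6 had both Th17 libraries above both Naive libraries, as had 32.4% of all genes, and 2 had both below, as had 33.1%.

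**Figure D1:**
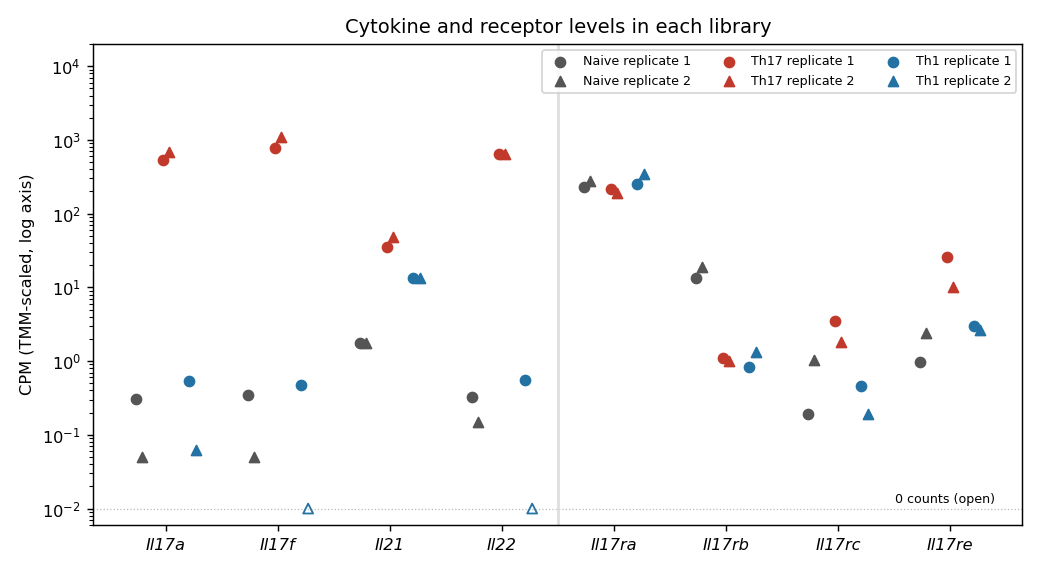
CPM of the 4 cytokine genes (left of the line) and the 4 receptor genes in each of the 6 libraries, on a log axis; circles are replicate 1, triangles replicate 2, and open symbols on the dotted line are libraries with 0 counts. *Il17a*, *Il17f* and *Il22* stood at 526 CPM or more in Th17 and below 1 CPM in the other libraries, whereas *Il17ra* lay between 189 and 342 CPM throughout.

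*Il17a*, the founding cytokine of the family, had 34379 and 12209 counts in the Th17 libraries, 21 and 1 in Naive, and 35 and 1 in Th1. In CPM, the Th17 libraries stood at 526 and 691, the Naive libraries at 0.308 and 0.0495, and the Th1 libraries at 0.541 and 0.0632. Both Th17 libraries were thus far above the other 4, and the Naive and Th1 libraries overlapped. The log2 fold change of *Il17a* was 11.35 (SE 0.72, adjusted p = 3.19e-05) in Th17 over Naive and -10.57 (SE 0.70, adjusted p = 7.54e-05) in Th1 against Th17.

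*Il17f*, whose product shares the IL-17A receptor, had 50275 and 19268 counts in Th17, 24 and 1 in Naive, and 31 and 0 in Th1. In CPM, Th17 stood at 769 and 1090, Naive at 0.352 and 0.0495, and Th1 at 0.480 and 0. Both Th17 libraries were again far above the other 4, and the Naive and Th1 libraries overlapped. The log2 fold change of *Il17f* was 11.80 (SE 0.84, adjusted p = 5.32e-05) in Th17 over Naive and -11.41 (SE 0.83, adjusted p = 1.02e-04) in Th1 against Th17, the lowest of all 13607 genes. The last value rests on 31 and 0 Th1 counts, and without Th1 replicate 1 it was -18.12, a fitted value that depends on the prior count.

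*Il22*, whose product acts on epithelial barriers, had 41537 and 11419 counts in Th17, 22 and 3 in Naive, and 36 and 0 in Th1. Its Th17 level was 636 and 646 CPM, and the other libraries lay between 0 and 0.557 CPM. The log2 fold change was 11.21 (SE 0.75, adjusted p = 4.74e-05) in Th17 over Naive and -10.68 (SE 0.73, adjusted p = 7.79e-05) in Th1 against Th17. By fold change in Th17 over Naive, *Il17f* ranked 8th, *Il17a* 13th and *Il22* 17th from the highest of all genes tested.

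*Il21*, a cytokine of activated T cells, rose in both polarized cell types. It had 119 and 35 counts in Naive (1.75 and 1.73 CPM), 2321 and 860 in Th17 (35.5 and 48.7 CPM), and 866 and 215 in Th1 (13.4 and 13.6 CPM). The 3 groups did not overlap, with Naive lowest, Th1 between and Th17 highest. The log2 fold change was 4.59 (SE 0.36, adjusted p = 6.91e-05) in Th17 over Naive and 2.95 (SE 0.33, adjusted p = 4.59e-04) in Th1 over Naive. In Th1 against Th17 it was -1.64 (SE 0.31, adjusted p = 0.00774), a call that was lost when any of the 4 Th17 or Th1 libraries was left out, with adjusted p-values of 0.0257 and 0.107 without Th17 replicate 1 and 2, and 0.0309 and 0.0318 without Th1 replicate 1 and 2. *Il21* lies at chr3:37222759-37232636 on the minus strand and shares 469 exon bases with the antisense gene *Gm12534*. The library protocol named in the labels, Smart-seq2, does not mark strand, so reads of this overlap cannot be told apart.

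*Il17ra*, the shared receptor chain (chr6:120463247-120487559, plus strand), was high in all cell types. It had 15806 and 5680 counts in Naive (232 and 281 CPM), 14231 and 3338 in Th17 (218 and 189 CPM), and 16449 and 5416 in Th1 (254 and 342 CPM). Both Th17 libraries were below the other 4, while the Naive and Th1 libraries overlapped. No comparison called it, and the 95% intervals of its log2 fold change were -0.96 to 0.29 in Th17 over Naive, -0.41 to 0.84 in Th1 over Naive and -0.07 to 1.18 in Th1 over Th17.

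*Il17rb*, the chain that binds IL-25 (chr14:29996135-30008896, minus strand), was the receptor gene that fell. It had 919 and 379 counts in Naive (13.5 and 18.8 CPM), 71 and 18 in Th17 (1.09 and 1.02 CPM), and 53 and 21 in Th1 (0.820 and 1.33 CPM). Both Naive libraries were above the other 4, and Th17 and Th1 overlapped. The log2 fold change was -3.93 (SE 0.47, adjusted p = 6.98e-04) in Th17 against Naive, and the call was lost without Th17 replicate 1 (-3.97, adjusted p = 0.0106). It was -3.95 (SE 0.47, adjusted p = 5.61e-04) in Th1 against Naive. The 95% interval of the difference between Th1 and Th17 was -1.03 to 0.98. *Il17rb* shares 141 exon bases with *Actr8* on the opposite strand, which had 640 to 2528 counts in the 6 libraries.

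*Il17re*, the partner of IL-17RA for IL-17C, lies at chr6:113458484-113470758, 668 bases before *Il17rc* on the same strand (chr6:113471427-113483140). *Il17re* had 67 and 48 counts in Naive (0.983 and 2.38 CPM), 1662 and 179 in Th17 (25.4 and 10.1 CPM), and 193 and 42 in Th1 (2.99 and 2.66 CPM). The Th17 libraries were the highest, the Th1 libraries were above the Naive ones, and both Th17 and Naive replicates differed by more than 2-fold. It was up-regulated in Th17 over Naive, with a log2 fold change of 3.45 (SE 0.59, adjusted p = 0.00467), and this call was lost without Naive replicate 1 (2.91, adjusted p = 0.0215), without Th17 replicate 1 (2.63, adjusted p = 0.0436) and with library totals alone (3.44, adjusted p = 0.0106). In Th1 against Th17 its log2 fold change was -2.66 (SE 0.57, adjusted p = 0.0135), which missed the threshold and passed it with DESeq2 (adjusted p = 6.79e-05). It was -1.85 (adjusted p = 0.105) without Th17 replicate 1 and -3.16 (adjusted p = 0.0104) without Th17 replicate 2.

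*Il17rc*, the partner of IL-17RA for IL-17A and IL-17F, had 13 and 21 counts in Naive (0.191 and 1.04 CPM), 232 and 32 in Th17 (3.55 and 1.81 CPM), and 30 and 3 in Th1 (0.464 and 0.190 CPM). Both Th17 libraries were the highest, and Naive and Th1 overlapped. Its log2 fold change was 2.26 (SE 0.84, adjusted p = 0.0918, 95% interval 0.39 to 4.13) in Th17 over Naive and -2.92 (SE 0.86, adjusted p = 0.0464, 95% interval -4.83 to -1.0) in Th1 against Th17. The first was 1.38 (adjusted p = 0.262) without Naive replicate 1, 3.80 (adjusted p = 0.0320) without Naive replicate 2 and 1.66 (adjusted p = 0.356) without Th17 replicate 1. Neither passed the threshold, and the second did so without the filter on low counts (adjusted p = 0.00118).

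**Figure D2:**
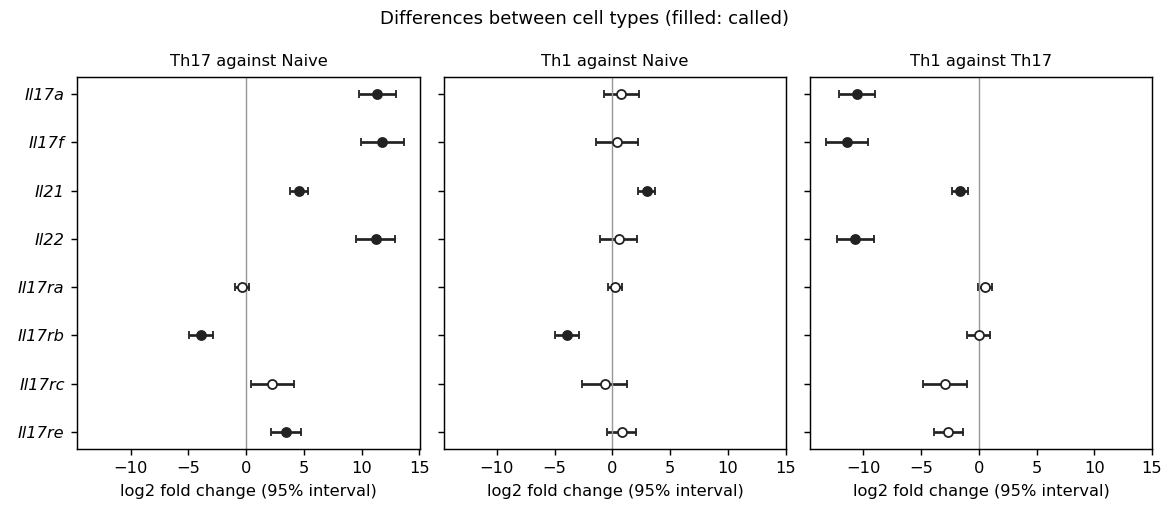
Log2 fold changes of the 8 genes in the 3 comparisons, with bars for the 95% interval of edgeR's fit of all 6 libraries; filled points were called. *Il17a*, *Il17f* and *Il22* lay above 11 in Th17 over Naive and below -10 in Th1 against Th17, and only *Il21* and *Il17rb* were called in Th1 against Naive.

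Comparing Th1 with Naive shows which of these changes also occurred in the other polarized cell type. *Il21* was the cytokine gene called up, and *Il17rb* the receptor gene called down, so that 1 of the 8 genes was called in each direction, where 4.64% and 2.81% of all genes were, and 2 in either direction, where 7.45% were. The median log2 fold change of the 8 genes was 0.46, against -0.02 over all genes. *Il17a*, *Il17f* and *Il22* were not called (0.78, 0.39 and 0.53, with SEs of 0.70, 0.80 and 0.72), and their sign turned when Th1 replicate 1 was left out. *Il17re* (0.80, SE 0.56), *Il17rc* (-0.66, SE 0.88) and *Il17ra* (0.22, SE 0.28) were not called either. This comparison and that of Th17 with Naive share the Naive libraries.

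Comparing Th1 with Th17 sets the polarized cell types against each other. All 4 cytokine genes were lower in Th1 and called, and no receptor gene was called. This made 4 of 8 genes called down, where 2.83% of all genes were, and 0 of 8 called up, where 2.7% were. In either direction it was 4 of 8, against 5.53% of all genes. By counts of libraries that did not overlap, 6 of the 8 genes were lower in both Th1 libraries than in both Th17 libraries, as were 35.1% of all genes, and 1 (*Il17ra*) was higher, as were 31.5%. The median log2 fold change of the 8 genes was -2.79, against -0.03 over all genes.

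Levels of different genes were compared as CPM per kilobase (kb) of merged exons. In Th17, the 3 highest genes of the group were *Il22* at 577 ± 6.65, *Il17a* at 520 ± 99.4 and *Il17f* at 460 ± 112 CPM per kb (mean ± SD, n = 2). The libraries of *Il17a* overlapped those of both others, while both *Il22* libraries, at 573 and 582 CPM per kb, were above both *Il17f* libraries, at 380 and 539 CPM per kb. The 3 genes ranked between 80th and 111th of the 23059 genes with a length in both Th17 libraries, and together took 0.210% and 0.242% of all counts there. *Il17ra* followed at 23.5 ± 2.36 CPM per kb, then *Il21* at 8.0 ± 1.77, *Il17re* at 3.03 ± 1.84, *Il17rc* at 1.00 ± 0.461 and *Il17rb* at 0.284 ± 0.0130 CPM per kb. The libraries of neighbouring genes in this lower part of the order did not overlap.

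The place of *Il17f* in this order depended on the length used. *Il17a* took 40.6% of the counts of the pair in Th17 replicate 1 (95% exact interval 40.3 to 40.9%) and 38.8% in replicate 2 (38.2 to 39.3%), intervals that cover counting error only. Per kb of merged exons *Il17a* was 1.18 and 1.09 times *Il17f*, and per kb of the longest transcript of each gene it was 0.688 and 0.637 times *Il17f*. The merged exons of *Il17f* are 2022 bases long and its longest transcript is 1178 bases long, while *Il17a* has 1171 bases by either measure. Per kb of the longest transcript *Il17f* stood at 653 and 925 CPM per kb, above both libraries of *Il22*, whose length is the same by either measure. No direction can therefore be given between *Il17f* and *Il17a* or between *Il17f* and *Il22*.

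**Figure D3:**
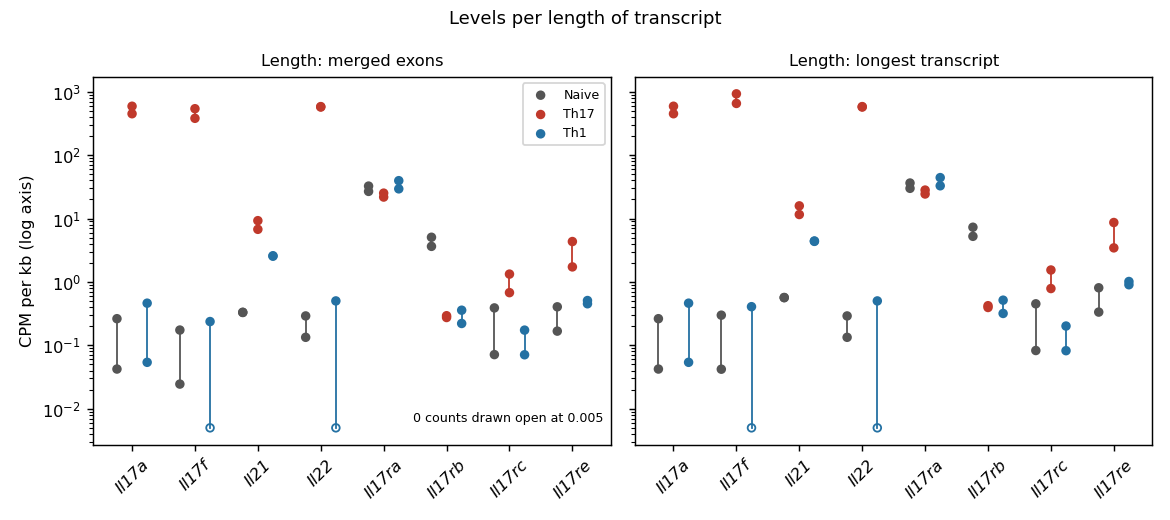
CPM per kb of the 8 genes by cell type, on a log axis, with each gene's length taken as merged exons (left) or as its longest transcript (right); each point is a library and lines join the replicates. In Th17 the 3 cytokine genes *Il17a*, *Il17f* and *Il22* lay above 380 CPM per kb, and *Il17ra* was the highest receptor gene in every library.

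In Naive, *Il17ra* was the highest of the 8 genes at 29.6 ± 4.02 CPM per kb, followed by *Il17rb* at 4.35 ± 1.01 CPM per kb. The other 6 genes were at 0.331 CPM per kb or less on average. In Th1, *Il17ra* was at 34.5 ± 7.18, *Il21* at 2.57 ± 0.0262, *Il17re* at 0.481 ± 0.0398 and *Il17rb* at 0.290 ± 0.0968 CPM per kb, and the 4 others were at 0.258 CPM per kb or less on average. In every library *Il17ra* was thus above each of its partner chains. Per kb, it was 18.9 and 32.2 times *Il17rc* in the Th17 libraries, 375 and 83.4 times in Naive, and 169 and 557 times in Th1, of which the last rests on 3 counts of *Il17rc*. It was 5.80 and 12.6 times *Il17re* in Th17, 160 and 80.2 times in Naive, and 57.7 and 87.4 times in Th1. The partner closest to *Il17ra* was *Il17re* in both Th17 libraries and *Il17rb* in both Naive libraries, where *Il17ra* was 7.36 and 6.41 times *Il17rb*.

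The few counts of *Il17a*, *Il17f* and *Il22* outside Th17 were larger in replicate 1 than in replicate 2. In Naive replicate 1, the counts were 0.0611%, 0.0477% and 0.0530% of those in Th17 replicate 1, and in Th1 replicate 1 they were 0.102%, 0.0617% and 0.0867%. In replicate 2 they ranged from 0 to 0.0263% of those in Th17 replicate 2. Among the 1131 genes with at least 10000 counts in Th17 replicate 1, *Il17f*, *Il22* and *Il17a* had the 3 lowest such percentages both in Naive and in Th1 replicate 1. The next lowest was *S100a9*, a neutrophil gene, at 0.0648% in Naive replicate 1. Fewer genes had as many counts in the shallower Th17 replicate 2. Among them, *Il17f*, *Il22* and *Il17a* were again the 3 lowest in Th1, but not in Naive. There *S100a9* had 0 counts and *S100a8*, its partner gene, stood at 0.0149%, below *Il22* at 0.0263%. In both replicates, genes were admitted by their Th17 counts and ranked by a percentage of those same counts. The ranking therefore restates the fold changes above and is no separate test of them. The source of the few counts outside Th17 was not tested.

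The sizes of the fold changes rest on these few counts. After TMM scaling, *Il17a* was 1707-fold higher in Th17 than in Naive by replicate 1 (95% exact interval 1116 to 2758), and by replicate 2, which rests on 1 Naive count, the interval was 2503 to 550988. Against Th1 replicate 2, where there was no count, *Il17f* was at least 5748-fold and *Il22* at least 3406-fold higher in Th17 replicate 2, taking 3 counts in that library as the floor. The lower ends of the 95% exact intervals were less, at 4674-fold and 2770-fold. Over the fits that leave out 1 library, the log2 fold change in Th17 over Naive ranged from 10.92 to 13.49 for *Il17a*, 11.34 to 14.10 for *Il17f* and 10.93 to 12.04 for *Il22*. In Th1 against Th17 it ranged from -13.17 to -10.11, from -18.12 to -10.90 and from -17.58 to -10.15, the lowest value of each being that without Th1 replicate 1, and the genes stayed called throughout. *Il21* differed from these genes in that its counts outside Th17 were 4.07% to 37.3% of those in the Th17 library of the same number.

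**Figure D4:**
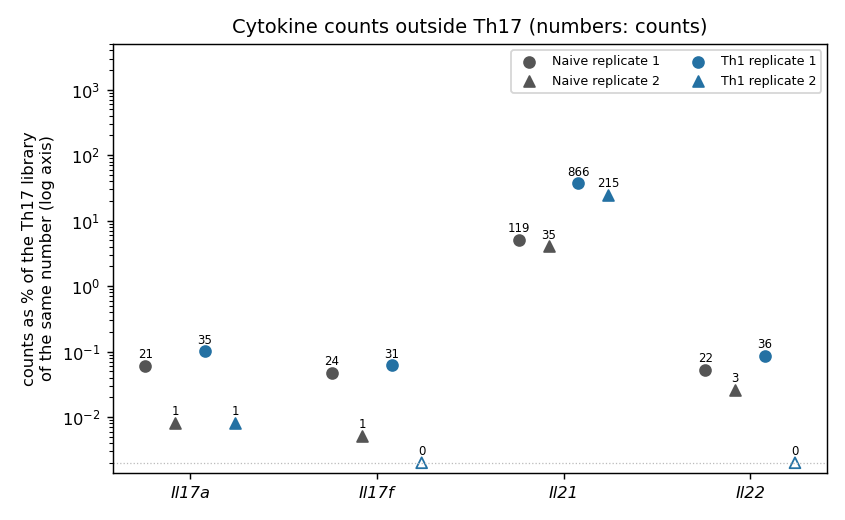
Counts of the 4 cytokine genes in the Naive and Th1 libraries as a percentage of the counts in the Th17 library with the same replicate number, on a log axis, with the count beside each symbol and open symbols for 0 counts. The percentages are not scaled for depth; *Il17a*, *Il17f* and *Il22* lay at or below 0.102% in each library and *Il21* at or above 4.07%.

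Markers of other cell types that can make these cytokines or carry these receptors were read beside them. γδ T and innate lymphoid cells can make IL-17A and IL-22, and 6 of 12 markers of these cells were in the files, none of them a γδ T cell receptor gene. Their summed CPM was 49.97 to 118 in Naive, 35.2 to 48.1 in Th17 and 34.3 to 41.0 in Th1, with median log2 fold changes of -0.63 in Th17 over Naive, -1.46 in Th1 over Naive and -0.75 in Th1 over Th17, and no marker was at 0 counts in a whole cell type. No marker of this list was called, and the members did not move together. *Kit*, the largest part of the Naive sum, was at 99.8 and 29.6 CPM in the Naive libraries, 12.8 and 11.4 in Th17, and 23.7 and 22.4 in Th1. The other way, *Blk* was at 1.08 ± 0.833, 5.84 ± 1.06 and 0.193 ± 0.273 CPM (log2 fold change 2.37, adjusted p = 0.0739 in Th17 over Naive, and -4.54, adjusted p = 0.0112 in Th1 against Th17), and *Cd163l1* at 3.44 ± 1.44, 13.5 ± 4.47 and 9.09 ± 2.03 CPM (2.00, adjusted p = 0.0171 in Th17 over Naive). ILC2 and Th2 cells carry IL-17RB. Their 9 markers summed to 85.4 to 93.7 CPM in Naive, 64.9 to 65.9 in Th17 and 177 to 387 in Th1, with *Il5* at 0 counts in Naive. Most of the Th1 sum came from *Gata3* at 179 ± 87.7 CPM and *Il1rl1*, the IL-33 receptor gene, at 99.2 ± 61.5 CPM. Of the 8 tested, 6 were higher in Th17 than in Naive and 5 were higher in Th1 than in Naive. Their median log2 fold changes were 1.26 and 1.33, against -0.02 over all genes tested in both comparisons. In Th1 over Th17 the median was -1.60, against -0.03 over all genes, and 3 were higher. There *Il4* and *Il13* were called down and *Gata3* was called up. *Il13* was called up in Th17 over Naive (6.64, SE 0.54, adjusted p = 9.57e-05), and *Gata3* was called down. Unlike most of the list, *Klrg1* was highest in Naive, at 4.28 ± 1.99 CPM against 0.379 ± 0.104 in Th17 and 0.571 ± 0.00243 in Th1. It was called down in both (log2 fold change -3.55, adjusted p = 0.00513, and -2.91, adjusted p = 0.00891). Markers of CD8 T and NK cells summed to 54.9 to 57.0 CPM in Naive, 32.9 to 65.9 in Th17 and 32.7 to 47.9 in Th1, with *Klra8* at 0 throughout. Markers of B cells, 6 in the files, summed to 6.54 to 10.6 CPM in Naive, 13.4 to 17.4 in Th17 and 2.49 to 3.29 in Th1. For the 5 tested the median log2 fold change was 1.51 in Th17 over Naive, -1.18 in Th1 over Naive and -2.60 in Th1 over Th17, and *Ebf1*, a B cell transcription factor gene, was called up in Th17 over Naive (6.84, SE 1.12, adjusted p = 0.00360) from 1 and 0 counts to 108 and 27. *Il5* and *Ebf1* passed the filter on low counts only through Th17. The part of such cells in the values of the 8 genes was not tested.

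Of the rest of the IL-17 family, no gene was called in any comparison. *Il17b* and *Il25*, the ligands of IL-17RB, had 0 counts in all 6 libraries. *Il17c*, the ligand of IL-17RE, was at 0.279 ± 0.166 CPM in Naive, 0.279 ± 0.00526 in Th17 and 0.281 ± 0.0400 in Th1. *Il17d* was at 0.141 ± 0.0390 to 0.433 ± 0.371 CPM on average, and *Il17rd*, a further receptor of the family, at 0.461 ± 0.258 to 0.814 ± 0.101 CPM. These levels rest on 2 to 49 counts in a library.

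The 26 genes of IL-17 receptor signalling, which run from the adaptor Act1 (*Traf3ip2*) through the TRAF proteins and kinases to NF-κB, C/EBP factors and mRNA regulators, were all tested. The counts of this list and the next ones stand against 4.01% of all genes called up and 1.43% called down in Th17 over Naive, 4.64% and 2.81% in Th1 over Naive, and 2.7% and 2.83% in Th1 over Th17. In Th17 against Naive 1 of them was called up and 0 down, and their median log2 fold change was -0.23. In Th1 against Naive 2 were called up (median 0.25), and in Th1 against Th17 1 was called up (median 0.19), shares near those of all genes. *Traf3ip2* was at 48.3 ± 13.2, 40.4 ± 0.194 and 68.3 ± 25.3 CPM in Naive, Th17 and Th1 and was not called. *Cebpd*, which encodes the transcription factor C/EBPδ, rose from 1.28 ± 0.268 CPM in Naive to 13.1 ± 0.633 in Th17 (log2 fold change 3.33, SE 0.39, adjusted p = 6.83e-04) and 14.6 ± 2.62 in Th1 (3.49, SE 0.39). *Arid5a*, whose product stabilizes mRNAs, rose in Th1 over Naive (1.39, SE 0.28), and *Usp25*, a deubiquitinase, was higher in Th1 than in Th17 (1.38, SE 0.26).

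Of the 11 genes that encode receptors, kinases and signal transducers of IL-21 and IL-22, 9 were tested and 1 was called, *Socs3*, which encodes an inhibitor of this signalling. *Socs3* rose from 106 ± 35 CPM in Naive to 601 ± 129 in Th17 (log2 fold change 2.50, SE 0.36, adjusted p = 0.00178) and 422 ± 103 in Th1 (1.99, SE 0.35, adjusted p = 0.00430). The median log2 fold change of the 9 genes was 0.24 in Th17 over Naive, 0.67 in Th1 over Naive and 0.35 in Th1 over Th17. Both chains of the IL-21 receptor were expressed throughout. *Il21r* was at 148 ± 38.7, 175 ± 6.57 and 162 ± 25.8 CPM in Naive, Th17 and Th1, and *Il2rg*, the common γ chain, at 400 ± 107, 452 ± 3.94 and 754 ± 1.36 CPM. For IL-22, *Il10rb* was at 39.1 ± 0.874, 47.3 ± 3.45 and 57.2 ± 20.3 CPM, whereas *Il22ra1*, the specific chain, had 2 counts or fewer in each library and *Il22ra2*, the secreted binding protein, 9 counts or fewer.

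Of 16 genes known as activators of *Il17a* and *Il17f*, 4 rose in Th17 over Naive and 0 fell, and 2 of them were lower in Th1 than in Th17, namely *Il23r* and *Il1r1*. *Il23r*, the receptor of IL-23, was at 0.360 ± 0.300, 31.8 ± 1.86 and 1.13 ± 1.24 CPM in Naive, Th17 and Th1, and *Il1r1*, the receptor of IL-1, at 3.69 ± 0.0315, 58.1 ± 13.9 and 2.94 ± 0.133 CPM. Their log2 fold changes in Th17 over Naive were 6.26 (SE 0.83, adjusted p = 0.00127) and 3.98 (SE 0.34, adjusted p = 1.23e-04). IL-23, IL-1β and IL-6 were all in the Th17 culture. *Il6ra*, the receptor of IL-6, was lower in Th17 than in Naive (265 ± 77.6 and 123 ± 37.1 CPM) and was not called (-1.10, SE 0.35, adjusted p = 0.0565). An effect of the added cytokines on their receptor genes was not tested. Not all activators followed the cytokine genes, since in Th1 over Naive 3 rose and 1 fell. *Hif1a*, the hypoxia factor, rose to 507 ± 15.5 CPM in Th17 and 1108 ± 49.4 CPM in Th1 from 109 ± 23.5 CPM in Naive. *Fosl2*, an AP-1 factor, rose in Th1 over Naive (3.22, SE 0.38), and *Il6ra* fell (-2.02, SE 0.35). The median log2 fold change of the activators was 0.65 in Th17 over Naive, 0.62 in Th1 over Naive and 0.08 in Th1 over Th17.

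Of 13 genes known as repressors of these cytokine genes, 4 fell and 1 rose in Th17 against Naive, 2 fell and 2 rose in Th1 against Naive, and 3 were higher in Th1 than in Th17. *Tbx21*, *Eomes*, which encodes a T-box factor related to T-bet, and *Gata3*, which encodes the Th2 factor, made up the 3. Their log2 fold changes in Th17 against Naive were -2.57 (SE 0.32), -4.44 (SE 0.42) and -2.36 (SE 0.45), and those in Th1 over Th17 were 5.31 (SE 0.35), 3.70 (SE 0.41) and 3.71 (SE 0.47). *Foxp3*, which encodes the regulatory T cell factor, fell in Th1 against Naive (-2.45, SE 0.43) and was not called in Th17 against Naive (-1.77, SE 0.42, adjusted p = 0.0210). The gene that rose in Th17 was *Socs3*. The median log2 fold change of the 13 genes was -0.56, 0.09 and 0.38 in the 3 comparisons.

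Of 17 genes known to respond to IL-17 in its target cells, 13 were tested, and 8 rose in Th17 over Naive, 2 in Th1 over Naive and 0 in Th1 over Th17, where 6 were lower. The fitted median log2 fold change was 7.79, 1.84 and -4.12, and 3.51, 1.84 and -3.16 with genes at 0 counts in a whole cell type set to the smallest fold that 3 counts in a library allow. *Lcn2*, which encodes the antimicrobial protein lipocalin-2, was at 0.105 ± 0.0792 CPM in Naive, 102 ± 22.6 in Th17 and 1.23 ± 0.494 in Th1 (log2 fold change 9.59, SE 0.55, adjusted p = 3.05e-05 in Th17 over Naive). *Mmp13*, a collagenase gene, had no count in Naive and was at least 149-fold higher in Th17 and at least 16.9-fold higher in Th1. *Ccl20*, which encodes a chemokine for CCR6-bearing cells, had no count in Naive and Th1 and 91 and 28 counts in Th17, at least 10.02-fold and 7.85-fold more. *Ccl2* and *Cxcl5*, chemokine genes of monocytes and neutrophils, had 85 and 205 counts and 178 and 124 counts in Th17, against 0 to 21 counts in the other libraries. *Ccl20* and *Ccl2*, with at most 1 count in any Naive or Th1 library, passed the filter on low counts only through Th17. Such genes could only be higher there, so the calls and medians of this list are no separate test of a response.

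The myeloid and neutrophil markers rose along with this list. Of the 11 in the files, 7 were called up and 1 down in Th17 over Naive, 4 up and 3 down in Th1 over Naive, and 9 were lower in Th1 than in Th17, with medians of 4.63, 0.74 and -4.30. The part of myeloid cells in the values of the response genes was not tested.

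**Figure D5:**
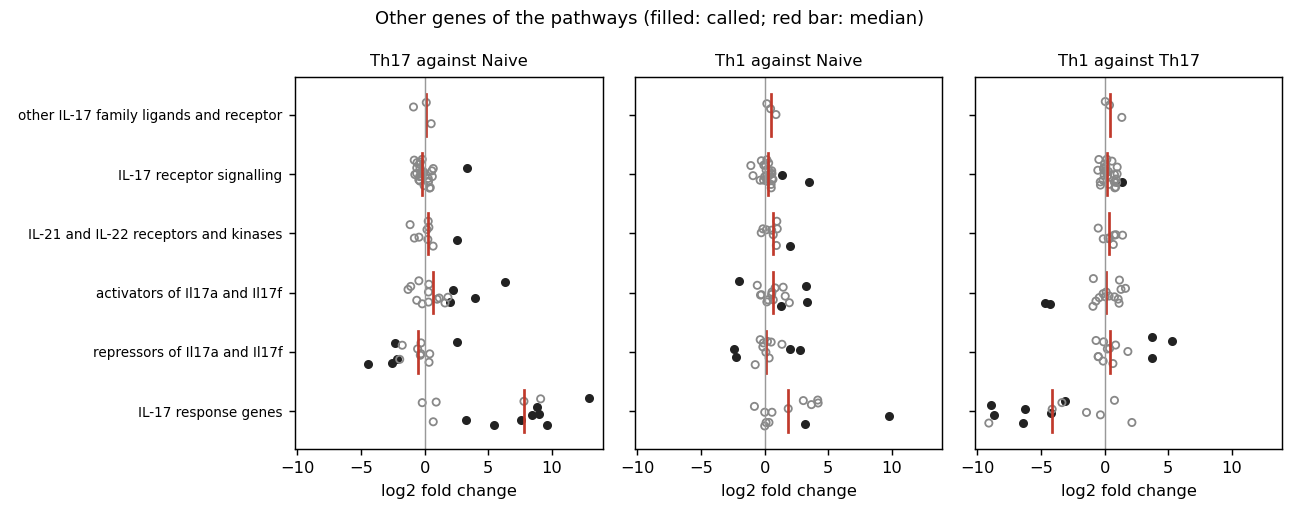
Log2 fold changes of the other genes of the pathways in the 3 comparisons; each point is a gene tested, filled where called, red bars are list medians of fitted values, and the vertical scatter within a list has no meaning. In Th17 over Naive, where 4.01% of all genes were called up, 1 of 26 signalling genes was, while 8 of 13 response genes and 4 of 16 activators were called up in Th17 over Naive. Response genes such as *Ccl20* passed the filter on low counts only through Th17.

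Across the 6 libraries, the genes whose pattern was nearest to *Il17a* were *Il17f*, *Il22* and *BC100530*, at Euclidean distances of 1.51, 1.61 and 2.14 between centred log2 CPM profiles. *Il17f* and *Il22* were each other's nearest gene (1.31), and *BC100530* was the third nearest to both. *BC100530* stood at 65.8 and 67.1 CPM in the Th17 libraries and at 0.124 CPM or less elsewhere. *Il21* had other neighbours, *Ccr2* (0.77), *Akr1b8* (0.78) and *Stk32c* (0.86), of which *Ccr2*, a chemokine receptor gene, stood at 31.5 and 25.1 CPM in the Naive libraries, 465 and 459 CPM in the Th17 libraries, and 132 and 151 CPM in the Th1 libraries. Its distance to *Il17a* was 10.2.

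Among the receptor genes, *Il17rb* was nearest to *Tox* (0.42), which encodes a nuclear factor of T cells and fell from 41.6 and 65.1 CPM in Naive to between 2.91 and 4.99 CPM in the other libraries, then to *Slc22a2* and *Klk15*. *Il17re* was nearest to *Mcam* (0.54), an adhesion molecule gene, then to *Inpp5j* and *Scn8a*, and *Il17rc* to *Fabp12* (0.39), *Gm9961* and *Steap4*. The distance between *Il17rc* and its neighbour on the chromosome, *Il17re*, was 1.75. *Il17ra* had the closest neighbours, *Capn1* (0.10), *Slain2* (0.13) and *Arfgef1* (0.13). The distances rest on 6 libraries that also differ in depth, and a gene with a nearly flat profile is close to many others. Some neighbours lay near 0 counts, where the prior count shrinks differences between libraries. *Fabp12* was at 0.612 CPM or less, and *Slc22a2* and *Klk15* were at 0 in the Th17 and Th1 libraries.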

How the data were processed

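RNA-Seq was performed on polyadenylated RNA amplified by Smart-seq2 from 2 libraries each of mouse Naive, Th17 and Th1 cells. The deposited values are raw counts of reads per gene, one set per library and not normalized, for 24223 genes given by symbol. Per the labels, the authors used the mm10 build, HISAT2 2.2.1 and HTSeq 0.13.5. The methods name a removal of duplicates and default HTSeq settings, whereas the supplementary code has neither and sets reverse-stranded counting, so the strand setting behind the counts is not settled. Reads without molecular identifiers are not independent molecules. The exact intervals, of shares of counts and of folds by replicate, cover counting error only.

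Counts were analysed with edgeR 4.0.16 in R 4.3.3. Genes were filtered with filterByExpr, which left 13607, scaled by TMM (factors 0.862 to 1.09) and tested by quasi-likelihood with cell type as the only term and all 6 libraries in the fit. DEGs had an adjusted p (Benjamini-Hochberg) under 0.01 together with a log2 fold change beyond 1 in either direction. An exact permutation test (two-sided) of 2 against 2 libraries goes no lower than p = 0.333, so p-values come from the fit across all genes. Intervals and SEs of fold changes were derived from the same test. Levels are CPM of the TMM-scaled total, or CPM per kb of merged exons of GENCODE vM21 (GRCm38, the assembly also called mm10). Log2 CPM used a prior count of 2. Sequences and motif shares came from RefSeq (GRCm38.p6), with 7 of 8 genes matched, and from GENCODE transcripts. The scripts were tested on simulated data. For Th17 against Naive, 81 of 100 genes with a simulated log2 fold change of 3 were called in the right direction. Of those with 1.5, 36 of 99 were, and 4 of 13157 genes without a difference were called. A gene that was not called may therefore still differ.

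The genes described and the lists set beside them were chosen with earlier results of these data known. Named genes are all 8 genes, at most 5 called genes per list by largest change, genes that pair directly with the 8, the 3 genes of nearest pattern, and genes that overlap or copy them. A gene that met these rules is not reported here and was left out of the lists and figures. *S100a8*, *S100a9*, *Kit*, *Blk*, *Cd163l1*, *Il1rl1*, *Il13*, *Klrb1c* and *Klrd1* were named after their values were seen. Alternatives were DESeq2 1.42.0, RLE size factors, library totals alone, no filter, the replicate number as a block, at least 10 counts in every library, only the 4 libraries compared, thinning to 17742158 counts, an adjusted p-value under 0.05, other lengths and totals for levels, Pearson's r for likeness, and leaving out each library.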

Additional observations from a re-analysis of the deposited data

How the results depend on the processing

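Of 348 log2 fold changes computed for the 8 genes under the alternatives, 321 kept their direction and their side of the threshold, 8 lost and 9 gained a call, and 10 turned sign, none of these 10 being a call. The calls of *Il17a*, *Il17f* and *Il22* against Naive and Th1, of *Il21* against Naive and of *Il17rb* in Th1 against Naive held in every alternative in which the gene was tested. With at least 10 counts in every library, *Il17a*, *Il17f*, *Il22* and *Il17rc* were removed, so that 4 genes were tested, and 3 of the 8 were called in Th17 against Naive and 1 in Th1 against Th17. The number of genes called over all genes (739 in Th17 against Naive, 1014 in Th1 against Naive, 752 in Th1 against Th17) became 1738, 1928 and 1824 with DESeq2, 2154, 2259 and 2232 without the filter, 343, 674 and 411 with at least 10 counts in every library, and 2063, 2164 and 2112 at an adjusted p-value under 0.05. Leaving out a library gave 319 to 885, 516 to 939 and 266 to 1016 calls over all genes, and 4 to 6, 2 and 3 to 5 calls among the 8. The signs that turned were in Th1 against Naive *Il17a* (-1.76), *Il17f* (-6.27) and *Il22* (-6.32) without Th1 replicate 1, which left the library with at most 1 count of each, *Il17f* with thinning (-0.19) and without Naive replicate 2 (-0.047), *Il17ra* with library totals alone (-0.042) and without Th1 replicate 2 (-0.0060), and *Il17rc* without Naive replicate 2 (0.90). In Th1 against Th17, *Il17rb* turned without Th17 replicate 1 (0.03) and without Th1 replicate 1 (0.33). Over all leave-one-out fits these log2 fold changes in Th1 against Naive ranged from -1.76 to 2.92 for *Il17a*, -6.27 to 2.70 for *Il17f*, -6.32 to 1.37 for *Il22*, -0.0060 to 0.46 for *Il17ra* and -1.53 to 0.90 for *Il17rc*, and in Th1 against Th17 from -0.35 to 0.33 for *Il17rb*. Apart from the fall to at most 1 count, the cause was not tested. With library totals alone, the median of all genes moved to -0.26 in Th1 against Naive and -0.24 in Th1 against Th17.

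With the replicate number as a block, 1035, 1402 and 1041 genes were called over all genes, and 6, 2 and 5 of the 8, since *Il17re* passed in Th1 against Th17 (-2.64, adjusted p = 0.00485). The labels do not say what a replicate number shares, and the deviations of same-numbered libraries correlated at -0.23 between Naive and Th17, 0.17 between Naive and Th1 and 0.08 between Th17 and Th1, so the numbers were not treated as pairs. *Il17re* in Th1 against Th17 also passed with DESeq2, without the filter, with only the 4 libraries compared and without Naive replicate 1 or 2 (-2.64 to -2.66), whereas it was -1.85 (adjusted p = 0.105) without Th17 replicate 1, -3.16 (0.0104) without Th17 replicate 2, and had adjusted p-values of 0.0456 and 0.0585 without Th1 replicate 1 and 2.

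Depth limits the values near 0. A library with 3 counts of a gene stood at 0.0440 to 0.190 CPM. The replicates also disagreed after scaling for depth. *Il17a*, *Il17f* and *Il22* together were at 0.983 and 0.248 CPM in the Naive libraries and 1.58 and 0.0632 CPM in the Th1 libraries. The Naive and Th1 libraries overlapped for these genes and for *Il17rc*, so that their levels cannot be ranked between Naive and Th1. Leaving out a library leaves a cell type with 1 library, which is then assumed to vary like the others. By Pearson's r in place of distance, 7 of the 24 nearest genes were the same.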
